A study of Mus musculus with 4 samples.

Results

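The genes described here are those the study names as lying at sites of open chromatin shared by 3 comparisons of B lineage cells. In those comparisons, made by ATAC-seq, wild-type pro-B cells were set against *Ebf1*-deficient ones, later wild-type stages against earlier ones, and sorted cells carrying miR-195 against sorted cells carrying the EMPTY virus. The list holds 73 names, and the 70 other than *Blnk*, *Ebf1* and *Pax5* were followed here. They were matched to the probes of the array by name, and 69 of the 70 had at least 1 probe, out of 31895 names and symbols on the array. *Ube2h*, a ubiquitin-conjugating enzyme, was the member with no matched probe. The study drew the list from chromatin data, not from expression values. It was taken up here with earlier results of the array data known.

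RNA was read on 4 single-dye Agilent arrays of the mouse transcriptome. All 4 samples were Lin– cells of fetal liver from Ebf1–/– mice, grown with SCF, IL-7 and Flt-ligand at 10 ng/mL each, and 2 were infected with the control virus (EMPTY) and 2 with a virus carrying miR-195. The deletion of *Ebf1* is therefore shared by both groups, and neither a wild-type array nor an uninfected one was used here. The virus is a retrovirus with a PGK promoter and GFP, into which the miR-195 segment of a human leukemia line was cloned. The methods give OP9 stroma as the general culture, and the cells put on the arrays are not stated to have been sorted. The cells of the chromatin comparison came from bone marrow of transplanted mice and were sorted, so they differ from those on the arrays in setting and gate. The question the arrays can address is whether transcripts of these genes differ between the viruses in culture.

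ATAC-seq marks stretches of DNA that a transposase can reach, which include promoters and enhancers in use. An open site near a gene does not fix the level of its transcript, because enhancers can act on other genes and can open before transcription starts. In B lymphopoiesis, EBF1 is a pioneer factor that opens such sites, and factors of the RUNX, ETS, IRF and FOX families act with it. A microRNA acts on another layer: its seed, bases 2 to 8, pairs with messenger RNAs and lowers their stability or translation.

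The mature microRNA is shown because it is the agent that separates the groups. Mouse mmu-miR-195a-5p lies at chr11:70235062-70235082 on the plus strand of GRCm38.p6 (RefSeq), and its relatives in the mouse carry the same seed, which stands in capitals.
mmu-miR-195a-5p: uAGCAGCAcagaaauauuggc
mmu-miR-15a-5p: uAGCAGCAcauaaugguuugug
mmu-miR-16-5p: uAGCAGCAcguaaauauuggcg
mmu-miR-497a-5p: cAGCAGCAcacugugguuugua
The array has 0 probes named for *Mir195* or the neighbouring *Mir497*, so the transgene itself was not measured. The *Ebf1* probe read 2.01 and 1.89 with EMPTY and 1.85 and 2.03 with miR-195, with no wild-type reference. Every level below is in this unit, the log2 of the signal over the 75th percentile of its array, and every error marked SE is a standard error from limma. The 75th percentile was a signal of 1127 and 1029 on the EMPTY arrays and of 902 and 922 on the miR-195 arrays. A signal equal on all 4 arrays therefore reads higher with miR-195 in this unit, which bears on probes near background.

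Promoter letters are shown because the members share a chromatin feature and the motif of the missing factor can be searched there. RefSeq promoters of GRCm38.p6 were available for 60 of the 70 members, and the 250 bases before each listed start were searched on both strands. The EBF motif TCCCNNGGGA was found in 2 of the 60, *Cmip* and *Tbc1d1*, and in 0.914% of the 27025 genes with a promoter. The stretches with the motif in capitals lie on the plus strand, at chr8:117348995-117349044 and chr5:64160109-64160158.
Cmip: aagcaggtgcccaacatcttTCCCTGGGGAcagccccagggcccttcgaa
Tbc1d1: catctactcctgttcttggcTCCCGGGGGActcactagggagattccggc
The E-box letters CAGGTG, which E proteins such as E2A can bind, were found in 21 of the 60 members and in 19.4% of all genes. They occurred in 4 of the transcription factors described below, *Erg* (chr16:95459540-95459585, minus strand), *Foxp1* (chr6:99028406-99028451, minus), *Irf8* (chr8:120738414-120738459, plus) and *Runx1* (chr16:92826185-92826230, minus).
Erg: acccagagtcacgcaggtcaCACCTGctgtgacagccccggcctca
Foxp1: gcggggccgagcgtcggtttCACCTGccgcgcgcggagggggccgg
Irf8: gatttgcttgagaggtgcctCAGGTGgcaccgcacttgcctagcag
Runx1: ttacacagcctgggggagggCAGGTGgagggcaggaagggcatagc
The ETS letters AGGAAGT were in 6 of the 60 member promoters and 8.80% of all, the RUNX letters TGTGGT in 7 and 15.9%, and the FOX letters GTAAACA in 4 and 3.54%. A gene with several listed starts was counted once, so genes with more starts had more bases searched. The shares were not adjusted for this. The stretches of *Cmip*, *Erg*, *Foxp1* and *Irf8* lie before starts inside the gene. A match is a run of letters, not a measured site. The peaks themselves were not analysed here.

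The members had 117 probes. On all 4 arrays 89 of them (76.1%) were well above background, against 57.3% of all 39429 probes, and 19 were above background on no array. By gene, 57 members had a probe above background on every array, 4 only on some arrays and 8 on none. The 8 were *Nfia*, a transcription factor, *Rarres1*, a membrane protein induced by retinoids, *Bfsp1* of the lens cytoskeleton, *Dio2*, which activates thyroid hormone, the glutamate receptor subunit *Grik4*, hepatic lipase *Lipc*, the phosphoglucomutase relative *Pgm5* and the calcium channel *Ryr2*. The receptors *Alk* and *Itga9* and the ankyrin repeat protein *Ankrd6* were above background on 1 array each. For these 11 members no comparison was made, and no member was above background on both arrays of 1 virus and on neither of the other.

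The remaining 58 members had 93 probes that entered the comparison, among 23731 tested probes in all. Each exceeded background clearly on both replicates of 1 virus or of both. A level cannot be set against that of another probe, so each probe was compared with itself across the arrays. limma called 0 of the 93 member probes at an adjusted p under 0.05, and 0% of all tested probes. The lowest adjusted p among the members was 0.530 (limma with Benjamini-Hochberg adjustment).

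At an unadjusted p under 0.05 there were 5 member probes, 2 higher and 3 lower on the miR-195 arrays. Over all tested probes this share was 8.34%, with 6.25% higher and 2.09% lower. Both miR-195 arrays lay above both EMPTY arrays for 16 member probes, where 23.4% of all tested probes did so, and below them for 14, where 14.4% did. Under median scaling these counts were 9 and 23, where 14.0% and 25.6% of all tested probes lay above and below, and with the normexp background correction 37 and 11, where 39.5% and 10.4% did. For the other 63 the groups overlapped, and over all tested probes 37.8% did not overlap. The means of 46 member probes were higher with miR-195 and those of 47 lower. From the 5th to the 95th percentile their log2 fold changes ran from -0.50 to 0.42, and those of all tested probes from -0.37 to 0.58. With 1 probe per gene, that of highest mean signal, the median log2 fold change of the 58 genes was -0.02, and that of all tested probes 0.01.

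The differences between the viruses were of the size of those between replicates. For the member probes, the median absolute log2 fold change was 0.13, while the 2 EMPTY arrays differed by a median of 0.16 and the 2 miR-195 arrays by 0.18. Over all tested probes these medians were 0.12, 0.15 and 0.19. The fold change compares means of 2 arrays, which vary less than single arrays, so it is not on the same footing as the differences between replicates. For 59 of the 93 member probes the log2 fold change was smaller than its standard error, whose median was 0.15, and so it was for 13953 of all 23731 tested probes. For 2 arrays per virus the smallest p of an exact permutation test, two-sided, is 0.333. All 4 arrays lie on the same slide with the EMPTY arrays in the first positions, so position and virus cannot be told apart. Nothing states that the replicates came from separate animals or cultures, so the p-values measure only the spread between these samples.

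**Figure D1:**
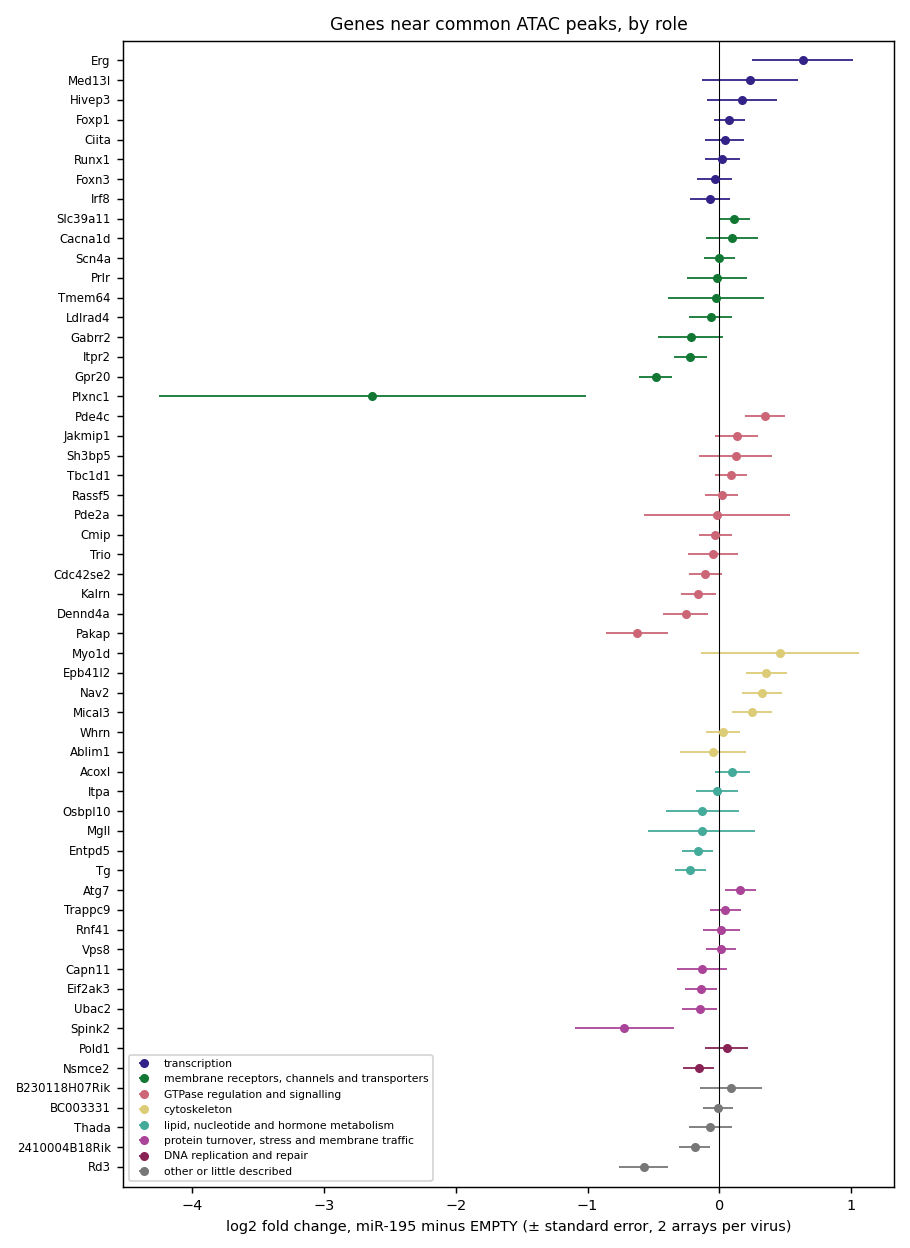
Log2 fold change (miR-195 minus EMPTY, x axis) of 57 of the 58 tested genes near common ATAC peaks, each by its probe of highest mean signal, with bars of 1 standard error from limma and colours for the role of the gene. Most points lie within 0.25 of 0, and *Plxnc1* stands apart at -2.63 with a standard error of 1.62.

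The samples carried transcripts of several lineages, which bears on any gene that more than 1 cell type uses. In bulk RNA, fewer cells of a type and less RNA per cell cannot be told apart. Of the B lineage markers 6 had tested probes, with a summed level of 10.9 to 12.3 with EMPTY and 11.6 to 13.4 with miR-195 that is mostly *Il7r* (3.23 to 3.51 over the arrays). *Cd79b*, a chain of the B cell receptor, read -1.18 and -0.96 with EMPTY and -0.26 and 0.49 with miR-195, a log2 fold change of 1.18 ± 0.28 (SE, limma adjusted p = 0.530). *Cd24a* and the dim *Cd79a* went the other way, at -0.58 and -0.37. *Il7r*, *Vpreb1* and *Vpreb3* lay at 0.05, 0.07 and 0.01, and the median of the 6 was 0.03. Dendritic markers summed to 203 to 229 and 210 to 227, and myeloid markers to 10.6 to 12.8 and 13.1 to 13.3. Of the 6 myeloid markers 5 had a higher mean with miR-195, against 12589 of 23731 tested probes, and their median log2 fold change was 0.37. Both miR-195 arrays were higher for *Ctsg* (0.96) and *Mpo* (0.72), as for 23.4% of all tested probes, and *Elane* went the other way at -0.10. None of the 6 passed the adjusted threshold of limma. T lineage markers summed to 39.5 to 45.7 and 40.1 to 42.4, mostly *Lck*, while all 6 had a lower mean with miR-195. For 3 of the 6, *Cd8a*, *Cd3g* and *Cd3d*, both miR-195 arrays were lower, with log2 fold changes of -0.91, -0.80 and -0.61, an unadjusted p under 0.05 and adjusted p of 0.530 or more (limma). Over all tested probes 11142 of 23731 had a lower mean, 14.4% were lower on both miR-195 arrays and 2.09% were lower at an unadjusted p under 0.05. NK and innate lymphoid markers summed to 19.9 on each EMPTY array and to 14.8 and 15.8 on the miR-195 arrays. Markers of OP9 stroma summed to 4.05 and 4.44, and to 3.87 and 6.63, with *Pdgfra*, *Dcn* and *Lum* above background on no array. Mast and basophil, erythroid and megakaryocyte markers summed to 1.14 or less on each array. These sums are of linear signals relative to the 75th percentile over the tested probes of each list.

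The 9 members that regulate transcription had 17 probes, of which 14 were tested. Both miR-195 arrays were above both EMPTY arrays for 4 of the 14 and below for 0, and 10 had a higher mean with miR-195. Over all tested probes 23.4% were above, 14.4% below, and 12589 of 23731 had a higher mean. The median log2 fold change of the 14 probes was 0.06, and it turned to -0.04 under median scaling, where 6 of the 14 had a higher mean. Probes of the same factor gave different values, and the difference between probes was not tested.

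*Foxp1* encodes a forkhead repressor needed in early B cell development (chr6:98925342-99522746). It had 3 probes, with log2 fold changes from 0.05 to 0.59, and the first bases of 2 of them are shown.
Foxp1 A_55_P2088825: ccagattttgaccatgacagagattacgaa
Foxp1 A_52_P276792: tttacaggcttccatggctgagaatagtat
The first probe, that of highest signal, read 4.71 and 4.78 with EMPTY and 4.79 and 4.85 with miR-195. Its groups did not overlap, but the log2 fold change was 0.08, with a 95% confidence interval from -0.23 to 0.38. The second read 2.96 and 3.04, then 3.07 and 3.02, with a log2 fold change of 0.05. The third probe, A_55_P2105452, read -0.81 and -0.73 with EMPTY and -0.45 and 0.10 with miR-195, so that both miR-195 arrays were higher and apart from each other by more than the EMPTY arrays. Its log2 fold change was 0.59 ± 0.21 (SE, limma adjusted p = 0.578), the second highest of the tested member probes. Without miR-195 replicate 1 it became 0.86 with an adjusted p of 0.0496. In such a fit the lone miR-195 array is assumed to vary like the EMPTY arrays, and 904 of all tested probes passed in this one.

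*Erg* encodes an ETS factor of blood stem cells and early lymphoid progenitors (chr16:95359169-95586600). Its 2 probes are both dim.
Erg A_55_P2015862: caccatgtatgatgtcatttgaagggaaac
Erg A_55_P2113832: tgcttgttttctttgaaatcagattcgttc
The first read -6.73 and -5.79 with EMPTY and -5.93 and -5.32 with miR-195, and it was above background on 3 of the 4. EMPTY replicate 1 was the low array, and the other 3 lay closer together. The log2 fold change was 0.63, the highest of the tested member probes, with a 95% confidence interval from -0.37 to 1.63 (adjusted p = 0.790 from limma). The second probe was above background on no array.

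*Runx1* encodes the core DNA-binding partner of CBFb in blood formation (chr16:92601466-92826074). One probe read 2.36 and 2.57 with EMPTY and 2.46 and 2.52 with miR-195. The other read 1.69 and 1.68 with EMPTY and 1.70 and 1.94 with miR-195. The log2 fold changes were 0.02 (95% confidence interval -0.33 to 0.37) and 0.14 (-0.22 to 0.49), and the second probe had groups apart, with miR-195 replicate 1 close to the EMPTY arrays. *Irf8*, an interferon regulatory factor of B cells, dendritic cells and monocytes (chr8:120736358-120756694), was one of the 5 members of highest signal. It read 5.81 and 5.93 with EMPTY and 5.94 and 5.65 with miR-195, and the groups overlapped. Its log2 fold change was -0.07, with a 95% confidence interval from -0.47 to 0.33.

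*Foxn3*, a forkhead repressor, had a probe at -0.28, -0.10, -0.16 and -0.28 on EMPTY replicates 1 and 2 and miR-195 replicates 1 and 2, in that order. Its other, dimmer probe read -4.20, -3.54, -3.35 and -3.24, with both miR-195 arrays higher and a log2 fold change of 0.58 ± 0.24 (SE, limma adjusted p = 0.639). The zinc finger protein *Hivep3* read -4.71, -5.46, -4.90 and -4.92, and EMPTY replicate 2 was the low array. *Med13l*, a subunit of the Mediator kinase module, read -1.63, -2.10, -2.12 and -1.16, which puts 1 array of each virus high. Its log2 fold change of 0.23 was within its standard error of 0.37. Both probes of *Nfia* were below background on all arrays.

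**Figure D2:**
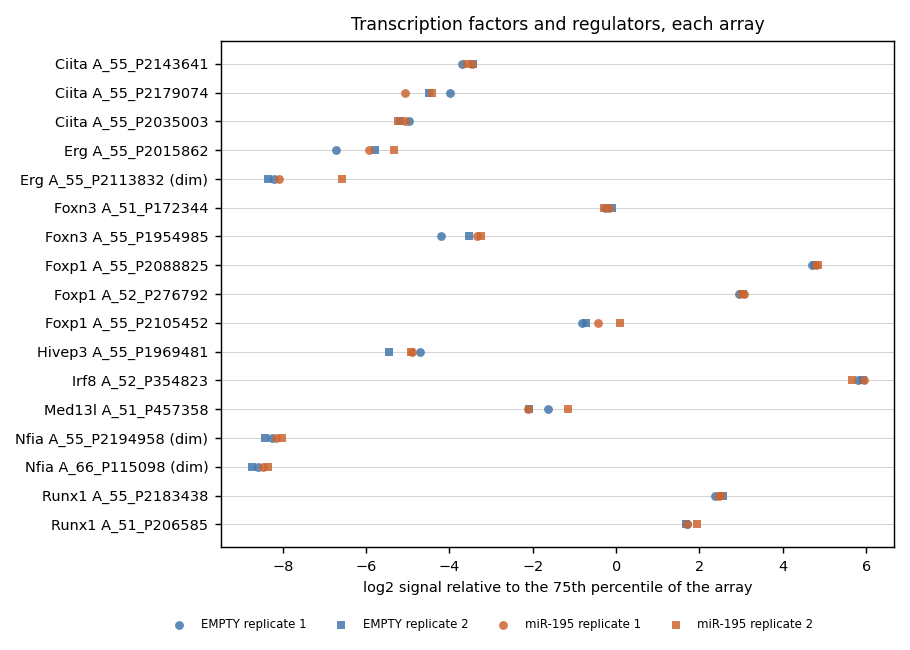
Log2 signal over the 75th percentile of its array (x axis) of each probe of the 9 transcription regulators, with 1 point per array, blue for EMPTY and orange for miR-195, circles for replicate 1 and squares for replicate 2. The 4 arrays nearly coincide for *Irf8* and *Runx1*, while the tested probe of *Erg* spreads from -6.73 to -5.32. Rows marked dim were not tested. Distances between rows are not comparable, since probes differ in brightness.

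*Ciita* encodes the coactivator that switches on MHC class II genes. Class II molecules present peptides to T helper cells on B cells, dendritic cells and macrophages. *Ciita* lies on chr16:10480014-10531064, and 3 probes were matched to it.
Ciita A_55_P2179074: gccccatctaatgcaaaacaaaacaaaacg
Ciita A_55_P2035003: catggccagcagcctgtcaacagactattt
Ciita A_55_P2143641: gaacctgggttaaaccacctctccccagtg
The first carries the name *Ciita* on the array. It read -3.99 and -4.49 with EMPTY and -5.06 and -4.42 with miR-195, so miR-195 replicate 1 was low and miR-195 replicate 2 lay within the EMPTY range. The log2 fold change was -0.50, with a 95% confidence interval from -1.25 to 0.25 (adjusted p = 0.767 from limma). The other 2 were matched through an older name of the locus and are less certain, and their log2 fold changes were -0.08 and 0.04.

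Of 9 class II genes and partners that *Ciita* controls, 8 had a tested probe. For all 8, both miR-195 arrays lay below both EMPTY arrays, where 14.4% of all tested probes did so. The median log2 fold change was -0.45, and 6 of the 8 were lower at an unadjusted p under 0.05, against 2.09% of all tested probes. None passed the adjusted threshold, and the lowest adjusted p was 0.530 (limma). *H2-Aa*, the class II alpha chain, read 2.45 and 1.80 with EMPTY and 1.05 and 1.32 with miR-195, a log2 fold change of -0.94 ± 0.26 (SE). *H2-Eb1*, a beta chain, read 5.25 and 4.68 with EMPTY and 4.05 and 4.50 with miR-195, a log2 fold change of -0.69 ± 0.26 (SE). In both, EMPTY replicate 1 was the highest and miR-195 replicate 1 the lowest array. The invariant chain *Cd74* read 5.08 and 4.82, then 4.42 and 4.59, with a log2 fold change of -0.45. The partners *H2-DMa*, *H2-DMb1*, *H2-DMb2*, *H2-Oa* and *H2-Ob* had log2 fold changes from -0.52 to -0.25. *H2-Ab1* could not be tested, because its spot on EMPTY replicate 2 was an outlier, and it read 5.04 on the other EMPTY array and 3.53 and 3.91 on the miR-195 arrays. The list was chosen because *Ciita* is a member, but with earlier results of these data known, so its counts are a description only. Its genes also mark B cells and dendritic cells. Of the 5 tested dendritic markers 2 were lower and 2 higher on both miR-195 arrays, against 14.4% and 23.4% of all tested probes, and 1 overlapped. The lower were *Batf3*, at 0.83 and 0.49, then -0.29 and -0.05, and *Itgax*, at 2.72 and 2.62, then 2.57 on both. The higher were *Siglech*, at 5.87 and 6.16, then 6.18 and 6.21, and *Flt3*, at 4.64 and 4.70, then 4.76 and 4.89. *Bst2* read 6.80 and 6.95, then 6.91 and 6.64. Their part in the class II values was not tested.

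**Figure D3:**
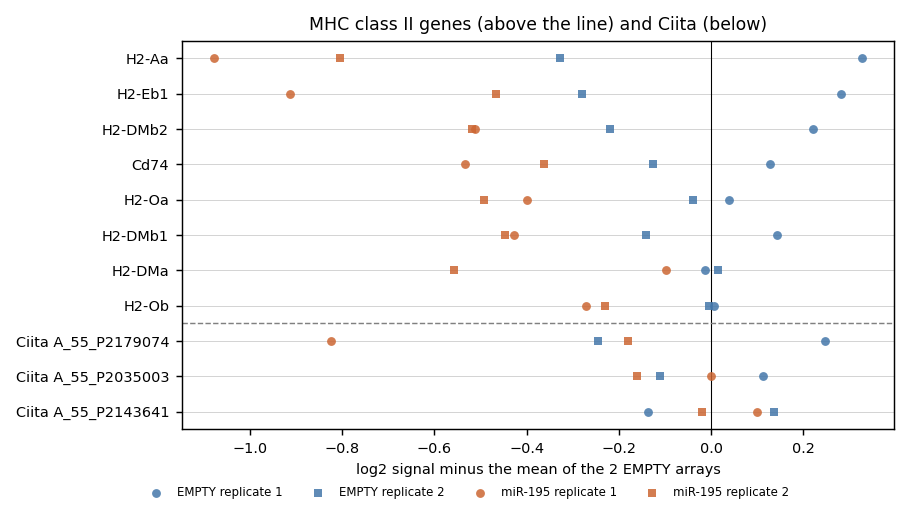
Log2 signal minus the mean of the 2 EMPTY arrays (x axis) for the 8 tested MHC class II genes (above the dashed line) and the 3 probes matched to *Ciita* (below), 1 point per array, with colours and symbols for virus and replicate. In each class II gene the orange points lie to the left of the blue points, while the points of *Ciita* overlap.

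The 15 receptors, channels and transporters had 18 probes, of which 13 were tested, with a median log2 fold change of -0.02 that lay at 0.08 with the normexp background correction. The groups did not overlap for 1 higher and 3 lower probes, where 23.4% of all tested probes were higher and 14.4% lower in this way. *Gpr20*, an orphan receptor coupled to G proteins (chr15:73688497-73707505), had the lowest adjusted p of the member probes. It read -1.86 and -1.88 with EMPTY and -2.27 and -2.43 with miR-195, with replicates of each virus close together. The log2 fold change was -0.48 (standard error 0.12, 95% confidence interval -0.81 to -0.16, adjusted p = 0.530 from limma). Under the 15 alternatives it lay between -0.58 and -0.31, with adjusted p of 0.146 or more.

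*Plxnc1* encodes plexin C1, a semaphorin receptor, and had the lowest log2 fold change of the tested member probes. The first bases of its 2 probes are given since their values differ.
Plxnc1 A_52_P507498: ggatcccattagccaaatgcacagaatgtc
Plxnc1 A_52_P299832: atgccaaggatataccaacctacaaagagg
The first read 1.59 and 1.46 with EMPTY, 1.38 on miR-195 replicate 1 and -3.60 on miR-195 replicate 2. Its log2 fold change of -2.63 ± 1.62 (SE, limma adjusted p = 0.798) rests on that single spot. Without miR-195 replicate 2 it was -0.14, and without miR-195 replicate 1 it was -5.12 (limma adjusted p = 2.0e-05, with the spread taken from the EMPTY arrays). The second probe read -0.97 and -1.09, then -0.99 and -0.78, with a log2 fold change of 0.15. On miR-195 replicate 2, 76 of all tested probes lay at least 3 below the lowest of the other 3 arrays, and on each of the other arrays 0 did. *Plxnc1* was the 1 member among the 76.

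*Cacna1d*, a calcium channel subunit, had 2 dim probes, and the one that reached a log2 fold change of 0.56 ± 0.34 (SE) read -5.44 and -6.18, then -5.58 and -4.92, with the groups overlapping and EMPTY replicate 2 not above background. *Itpr2*, an inositol trisphosphate receptor of the endoplasmic reticulum, read 2.47 and 2.39 with EMPTY and 2.15 and 2.27 with miR-195, lower on both arrays by a log2 fold change of -0.22 ± 0.12 (SE). The zinc transporter *Slc39a11* read 3.03 and 3.06, then 3.10 and 3.22, higher on both by 0.11, within its standard error of 0.12. *Scn4a*, a sodium channel of muscle, read -3.79 and -3.87, then -3.79 and -3.87, and differed by less than 0.01. The other receptors and transporters with tested probes, *Gabrr2*, *Ldlrad4*, *Prlr* and *Tmem64*, overlapped.

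The 13 signalling genes had 20 tested probes, with a median log2 fold change of -0.04, and 2 were higher and 3 lower on both miR-195 arrays. Among all tested probes these shares were 23.4% and 14.4%. *Pde4c*, a phosphodiesterase that degrades cyclic AMP, was among the 5 members of highest signal. It read 5.30 and 5.60 with EMPTY and 5.76 and 5.83 with miR-195, with EMPTY replicate 1 low, and its log2 fold change was 0.34 (95% confidence interval -0.05 to 0.74, adjusted p = 0.657 from limma). *Pakap*, a locus that joins paralemmin and an anchoring protein of protein kinase A, had 2 tested probes of opposite sign. One read -2.71 and -2.69, then -3.65 and -3.01, a log2 fold change of -0.63 ± 0.24 (SE, limma adjusted p = 0.597) that ran from -0.95 to -0.25 under the alternatives. The other read -5.08 and -5.22, then -5.20 and -4.62, a log2 fold change of 0.24. These 2 genes had the largest differences of the group.

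*Dennd4a*, an exchange factor for Rab GTPases, *Cmip*, an adaptor of T cell signalling, and *Rassf5*, a Ras effector of lymphocytes, were read by bright probes. The brightest *Dennd4a* probe read 6.30 and 6.28 with EMPTY and 6.48 on miR-195 replicate 1, and an outlier spot on the other miR-195 array kept it from the test. Its 2 tested probes had log2 fold changes of -0.26 and -0.07. *Cmip* holds the EBF letters shown above before a start inside the gene. It read 4.35 and 4.42, then 4.44 and 4.27, a log2 fold change of -0.03 (95% confidence interval -0.36 to 0.30). *Tbc1d1*, a GTPase activator for Rab proteins and the other promoter with those letters, read 2.19 and 2.26, then 2.27 and 2.36, a log2 fold change of 0.09. *Rassf5* read 3.88 and 3.99, then 4.00 and 3.91, a log2 fold change of 0.02 (-0.30 to 0.34). The remaining genes of the group, *Cdc42se2*, *Jakmip1*, *Kalrn*, *Pde2a*, *Sh3bp5* and *Trio*, had log2 fold changes from -0.16 to 0.13.

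The 8 cytoskeletal genes had 11 tested probes, of which 5 were higher and 1 lower on both miR-195 arrays. Over all tested probes 23.4% were higher and 14.4% lower in this way. Their median log2 fold change was 0.25, the highest of the 8 roles, and 0.15 under median scaling, but 0 of the 11 passed the adjusted threshold of limma. *Epb41l2*, a protein that ties spectrin to the membrane, read -2.71 on both EMPTY arrays and -2.52 and -2.19 with miR-195, a log2 fold change of 0.35 ± 0.16 (SE, limma adjusted p = 0.653). *Mical3*, an oxidase that acts on actin, was higher on both miR-195 arrays by both of its tested probes. They read -6.21 and -6.11, then -5.91 and -5.64, and -3.34 and -3.11, then -3.07 and -2.88, with log2 fold changes of 0.39 and 0.25, and the first of the probes was not above background on EMPTY replicate 1. The 3 tested probes of *Nav2*, which guides neurites, had log2 fold changes of 0.36, 0.32 and -0.18, the first of them overlapping.

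*Myo1d*, a membrane-bound motor of class I, read -5.24 and -5.45 with EMPTY and -5.78 and -3.98 with miR-195. Its miR-195 arrays were the lowest and the highest of the 4, and the log2 fold change was 0.46 with a standard error of 0.60. It became 1.36 without miR-195 replicate 1 (adjusted p = 0.0173 in the fit with a lone miR-195 array) and -0.44 without miR-195 replicate 2. *Whrn*, a scaffold protein known from the inner ear, had log2 fold changes of 0.03 and 0.24, and *Ablim1*, an actin-binding protein, of -0.05 and -0.11.

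**Figure D4:**
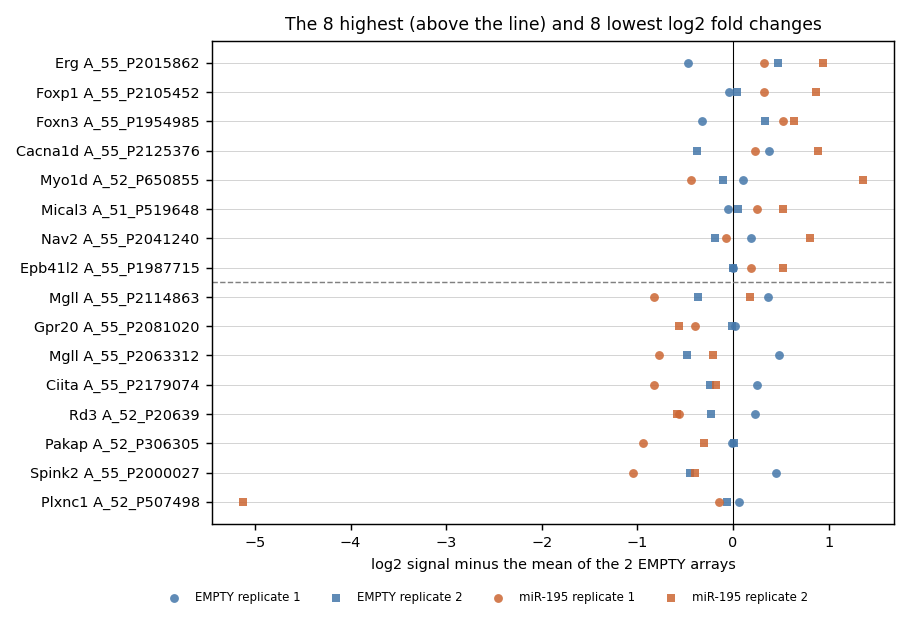
Log2 signal minus the mean of the 2 EMPTY arrays (x axis) for the 8 tested member probes with the highest and the 8 with the lowest log2 fold change, 1 point per array. For *Plxnc1* a single point, miR-195 replicate 2, lies at about -5 while the others are near 0, and *Gpr20*, *Rd3* and *Pakap* have both orange points to the left of both blue points.

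Of the 8 genes of lipid, nucleotide and hormone metabolism, 6 had 10 tested probes, and 9 of the 10 had a lower mean on the miR-195 arrays, or 6 of the 10 with the normexp background correction. Among all tested probes 11142 of 23731 had a lower mean. The median log2 fold change of the 10 was -0.13. Only 2 of the 10 were lower on both arrays without overlap, where 14.4% of all tested probes were. Those were the thyroglobulin gene *Tg*, at -4.33 and -4.39, then -4.62 and -4.55, and the nucleotide hydrolase *Entpd5* by its brighter probe, at 0.67 and 0.75, then 0.57 and 0.52. The log2 fold change of *Tg*, -0.22, turned to 0.14 with the normexp background correction. *Mgll*, which releases fatty acid from monoglycerides, had log2 fold changes of -0.49, -0.33 and -0.13 by its 3 tested probes, with standard errors of 0.38, 0.42 and 0.41. The inosine triphosphatase *Itpa* read 3.25 and 3.45, then 3.48 and 3.18. *Osbpl10*, a sterol-binding protein, had a log2 fold change of -0.13, and *Acoxl*, related to the acyl-CoA oxidases, had 0.10 and -0.01 by its probes.

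The genes of protein turnover, stress and traffic had 15 tested probes, 3 higher and 2 lower on both miR-195 arrays. Among all tested probes these shares were 23.4% and 14.4%. The median log2 fold change of the 15 was 0.01, and -0.09 under median scaling. *Atg7*, the enzyme that activates LC3 for autophagosomes (chr6:114643127-114860604), had 2 probes. One read 0.50 and 0.60 with EMPTY and 0.68 and 0.74 with miR-195, higher on both, with a log2 fold change of 0.16 (95% confidence interval -0.15 to 0.47). The other read -1.15, -1.18, -1.12 and -1.18 and differed by 0.02 (-0.29 to 0.32). *Eif2ak3*, the kinase PERK of the unfolded protein response, read 0.00 and -0.05, then -0.22 and -0.09, a log2 fold change of -0.14 (-0.45 to 0.18). *Spink2*, a serine protease inhibitor, read -2.37 and -3.27 with EMPTY and -3.87 and -3.22 with miR-195, a log2 fold change of -0.72 ± 0.38 (SE, limma adjusted p = 0.730), with EMPTY replicate 1 high and miR-195 replicate 1 low, and -1.17 to -0.27 under the alternatives. The probes of the vesicle tethering proteins *Vps8* and *Trappc9* had log2 fold changes of at most 0.30. The ubiquitin ligase *Rnf41* lay at 0.12 and 0.01, *Ubac2*, a membrane protein of protein quality control, at -0.15 and the calpain *Capn11* at -0.13.

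Among the remaining members, *Pold1*, the catalytic subunit of DNA polymerase delta, read 3.35 and 3.65, then 3.65 and 3.46, a log2 fold change of 0.05 (95% confidence interval -0.37 to 0.48). *Nsmce2*, the SUMO ligase of the SMC5/6 complex, had probes at -0.16 and 0.11. *Rd3*, known from photoreceptors as a regulator of guanylate cyclase, read -3.81 and -4.26 with EMPTY and -4.60 and -4.62 with miR-195, lower on both with a log2 fold change of -0.57 ± 0.19 (SE, limma adjusted p = 0.553). It was -0.10 with the normexp background correction. *Thada* and the little described *2410004B18Rik*, *B230118H07Rik* and *BC003331* had log2 fold changes from -0.19 to 0.16.

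Of the partners of these members, the class II genes above were the one list in which the groups were apart for every tested gene. Of 11 LC3 conjugation genes around *Atg7*, 1 was higher and 3 lower on both miR-195 arrays, with a median log2 fold change of -0.03. The largest were *Gabarapl2*, a relative of LC3, at -0.22 and *Atg16l1*, which places the conjugation complex, at 0.18. Of 12 genes of the unfolded protein response, 3 were higher and 3 lower, with a median of 0.03. *Ppp1r15a*, a phosphatase subunit that restores translation, read 2.72 and 2.91, then 2.61 and 3.83, and *Chac1*, which degrades glutathione, had a log2 fold change of 0.33. Of 6 Mediator kinase genes, 3 were higher and 1 lower, with a median of 0.08. *Med13*, the closest relative of *Med13l*, read -3.93 and -3.98 with EMPTY and -3.64 and -2.90 with miR-195, and the kinase *Cdk8* had a log2 fold change of 0.23. Of 9 partners of *Pold1* and *Nsmce2*, 3 were higher and 2 lower, with a median of -0.05, and the polymerase subunits *Pold4* and *Pold2* lay at -0.15 and -0.13. Of the relatives of the transcription factors, 12 of 14 were tested, 1 was higher and 1 lower, and the median was 0.02. *Foxn2* and *Runx2* had the largest differences among them, at 0.30 and 0.29. Over all tested probes 23.4% were higher and 14.4% lower in this way. In the lists other than class II 0 genes had an unadjusted p under 0.05, and 0 passed the adjusted threshold of limma. Without miR-195 replicate 1, which leaves a lone miR-195 array, the log2 fold change was 1.06 for *Med13* and 1.02 for *Ppp1r15a*. The lowest values under the alternatives were 0.32 for *Med13* and -0.21 for *Ppp1r15a*.

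Several members differed more between replicates than between viruses, with 1 array of each virus high. *Pde2a*, a phosphodiesterase stimulated by cyclic GMP, read 0.65 on EMPTY replicate 1 and 0.55 on miR-195 replicate 2, and -0.61 and -0.55 on the other 2 arrays. Its log2 fold change of -0.02 therefore sits over a spread of 1.26 between the EMPTY arrays. *Tmem64*, a membrane protein of calcium handling, read -1.13 and -1.98 with EMPTY and -1.91 and -1.26 with miR-195. One probe of *Mgll* read -0.97 and -1.78, then -1.95 and -1.06. EMPTY replicate 1 and miR-195 replicate 2 were also the highest for the other tested *Mgll* probes, for *Spink2* and for the *Cacna1d* probe given above. In *Med13l*, given above, EMPTY replicate 1 and miR-195 replicate 2 were the high arrays as well. Counted after these values were seen, the 2 arrays were the highest for 32 of the 93 member probes (34.4%) and for 3806 of the 23731 tested probes. They were so for 4 of the 6 NK and innate lymphoid markers, *Rora* (-1.49 and -2.82, then -2.61 and -1.69), *Ncr1* (-1.74 and -3.03, then -2.95 and -2.39), *Klrb1c* (0.29 and -0.75, then -0.72 and -0.35) and, by less than 0.01, *Il2rb* (1.75 and 1.03, then 0.69 and 1.03). The other 2, *Gzma* (2.26 and 2.80, then 1.96 and 1.75) and *Nkg7* (3.31 and 3.33, then 3.07 and 3.19), had both EMPTY arrays highest, and 0 of the 6 T lineage, 6 myeloid and 5 dendritic markers had the pattern. Their part in the values of *Pde2a*, *Tmem64* and *Mgll* was not tested.

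**Figure D5:**
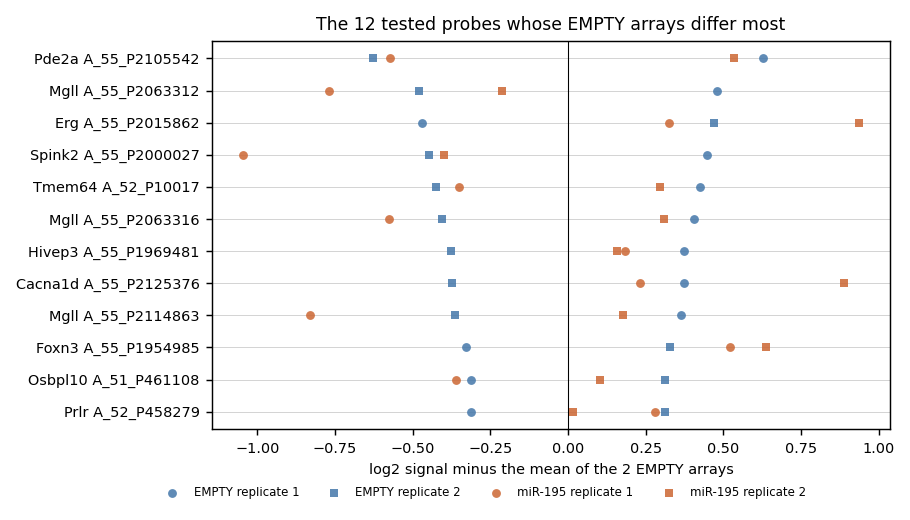
Log2 signal minus the mean of the 2 EMPTY arrays (x axis) for the 12 tested member probes whose EMPTY arrays differ most, 1 point per array. In *Pde2a*, *Tmem64*, *Spink2*, *Cacna1d* and each *Mgll* probe shown, the blue circle and the orange square lie to the right of the other 2 points.

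The study's list of 705 predicted mouse targets of miR-195 holds, among the members named here, *Cdc42se2*, *Plxnc1*, *Rassf5* and *Tmem64*. Of their 6 tested probes 4 had a lower and 2 a higher mean with miR-195, where 11142 of all 23731 tested probes had a lower mean. Among the 4, the fall of *Plxnc1* rests on the single spot described above. The *Cdc42se2* and *Tmem64* probes were lower by less than their standard errors. *Cdc42se2*, a small effector of CDC42, was lower on both miR-195 arrays by its brighter probe, at 3.24 and 3.16, then 3.04 and 3.15, with a log2 fold change of -0.11 that lay within its standard error of 0.12.

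Where a member had several tested probes, they could be set against each other. Of 29 such members, 19 had log2 fold changes of a single sign and 10 of both signs, and for 0 of them did probes of opposite sign both reach 0.3.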

How the data were processed

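The authors deposited, per spot, the intensity given by Agilent Feature Extraction (11.5.1.1 in the submitters' processing notes) after background subtraction and spatial detrending, and a table of log2 values scaled to the 75th percentile. Here outlier spots were left out, log2 values of a probe's spots averaged, and each array's 75th percentile subtracted. The result correlated with the deposited log2 table at 0.998 on each array. Per array 23658 to 24671 of 39429 probes were well above background, and the number of arrays limits the precision. The 23731 probes above background on both replicates of a virus entered limma 3.58.1 (lmFit, eBayes; R 4.3.3), two-sided, with Benjamini-Hochberg adjustment over all of them, after tests on simulated data. Members were matched by array name (107 probes), accession (8) and older name (2). No deposited column of sample values was left unused. Members, lists and named genes were chosen with earlier results of these data known. Named were all transcription regulators, the genes that the study names, the 8 highest and 8 lowest tested probes, the 5 brightest members, members whose probes disagreed and 2 genes per partner list. Other genes were named for their replicate spread after their values were seen. Arrays of a virus that all lay on one side are stated also where the change is within its standard error. The values of 1 member and the letters of 1 probe are not reported here, and counts over the members include them.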

Additional observations from a re-analysis of the deposited data

How the results depend on the processing

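Alternatives were the normexp background correction, quantile normalization, median scaling, the 75th percentile over detected probes, the authors' table, 2 other filters on dim probes, a block for the replicate number, robust eBayes with a trend, the methods' t-test and each array left out. Over all tested probes limma called 3 with median scaling, 5 with the replicate block and 0 to 904 with 1 array left out. The 904 came without miR-195 replicate 1 and 3 without miR-195 replicate 2. Of the member probes, 0 were called in any setting other than that without miR-195 replicate 1, where 3 were (*Plxnc1*, *Myo1d*, *Foxp1*), with a lone miR-195 array assumed to vary like the EMPTY arrays, so the range over arrays left out was 0 to 3. The same-numbered replicates were not shown to be paired: their deviations correlated at -0.10. The crossed pairing, added after the data were seen, gave 0 calls over all probes and 0 among the members, as the replicate block did among the members.

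The median log2 fold change of the members, -0.02, became 0.015 with normexp, -0.049 with quantile normalization, -0.12 with median scaling, 0.0029 with the percentile over detected probes, -0.034 in the authors' table, -0.0092 with no filter and -0.0099 with the mean of a gene's probes. It was -0.044 to -0.0013 with 1 array left out. Median scaling moved the median of all tested probes from 0.01 to -0.08. Member probes with both miR-195 arrays higher numbered 37 with normexp (39.5% of all tested probes) and 9 with median scaling (14.0%), and those with both lower 23 with median scaling (25.6%), as further settings added later. With 1 array left out, which makes groups overlap less by construction, they were 27 to 34 and 26 to 36, and over all tested probes 34.2% to 40.1% and 24.5% to 38.2%. The class II median was -0.58 to -0.33 with 1 array left out. Under median scaling the medians were -0.13 for LC3 conjugation, -0.069 for the unfolded protein response, -0.022 for Mediator, -0.14 for the partners of *Pold1* and *Nsmce2* and -0.078 for the factor relatives. With normexp they were 0.16 for Mediator and 0.11 for the relatives. With 1 array left out they were -0.046 to -0.0040 for LC3 conjugation, 0.0074 to 0.086 for the unfolded protein response, -0.067 to 0.050 for the *Pold1* partners and -0.019 to 0.098 for the relatives. Of 30 member probes named by rule, 16 had a log2 fold change over its standard error, and 1 of these changed sign, a *Nav2* probe at 0.36, which ranged from -0.079 without miR-195 replicate 2 to 0.81 without miR-195 replicate 1. Of the 14 within their standard error, 13 changed sign under some alternative. Of the 34 tested member probes over their standard error, 5 changed sign, the others being 1 probe each of *Tg*, *Kalrn* and *Nav2* with normexp and 1 of *Pakap* without miR-195 replicate 2. The cause was not tested.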
